A study of Mus musculus with 4 samples.

Results

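The p53 pathway is described here through 32 genes, namely Trp53 itself, its feedback regulators and genes known as targets of the p53 protein. They were chosen by name: every non-control probe whose gene name on the array is one of the 32 was taken, which gave 63 probes out of 56605, and 32 of 37325 gene names. All cells were NIH3T3, an established mouse fibroblast line. The first group was transfected with siTIMP1, an siRNA against Timp1 (n = 2 arrays), and the second with siControl, a control siRNA (n = 2 arrays). In both groups the siRNA was carried by apatite nanoparticles, abbreviated sCA in the labels, and the medium held 2% serum, so no group without nanoparticles or without siRNA entered the comparison. The labels call the cells dermal fibroblasts, whereas NIH3T3 is known as a line started from mouse embryos. The time between transfection and harvest is not given in the sources used here. Total RNA was labelled with Cy3 and read on 1-colour Agilent arrays with 60-base probes, all 4 on 1 slide.

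The p53 protein is a transcription factor that accumulates when DNA is damaged or when cells are otherwise stressed. It switches on genes that halt the cell cycle, start apoptosis, repair DNA, and adjust metabolism and antioxidant defence. Mdm2, itself a target, marks p53 for degradation, which closes a feedback loop, and p53 is controlled mainly through the stability and modification of its protein, which RNA arrays do not measure. NIH3T3 cells are known to lack the Cdkn2a locus, whose Arf product restrains Mdm2. The processed signals of the 2 Cdkn2a probes lay between 1.59 and 2.87 on the siTIMP1 arrays and between 1.43 and 2.01 on the siControl arrays, and neither probe was well above background on any array.

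The targeted gene checks the labels. Timp1, a secreted inhibitor of matrix metalloproteinases, had processed signals of 1840 and 1492 on the siTIMP1 arrays, against 53297 and 67559 on the siControl arrays. With a standard error (SE) of 0.15, Timp1 fell by 5.21 on the log2 scale (limma adjusted p = 0.00786). Over all genes, 20 of 17734 were called higher and 124 lower at an adjusted p under 0.05, and the median log2 fold change was 0.03. All 10 fibroblast markers were tested, that is, well above background on both arrays of a group, while 0 of 6 endothelial markers were. Of 8 epithelial markers, Krt8, Krt14 and Trp63 were well above background on all 4 arrays, and Epcam and Cdh1 on 0. Of 8 macrophage markers, 6 had a probe well above background on all 4 arrays, while Adgre1 and Tyrobp had 0. Among the 6, Itgam gave 1711 and 1681 on the siTIMP1 arrays, against 2053 and 2056 on the siControl arrays. The other Itgam probe and the other Trp63 probes were well above background on 0 arrays, and the other Ptprc probes on 0 to 2. Each probe of Csf1r, Cd14 and Krt8 was well above background on all 4. Of the 10 fibroblast markers and of the 6 macrophage markers tested, 2 each were lower in siTIMP1 at an unadjusted p under 0.05, where 7.77% of all genes were, with limma adjusted p no lower than 0.0647. Their part in the values that follow was not tested. In RNA from a whole culture, fewer cells expressing a gene and less of its RNA per cell cannot be told apart. Position on the slide ran with the groups, siTIMP1 at positions 3 and 4 and siControl at positions 1 and 2, so the effects of position and siRNA cannot be told apart.

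None of the p53 pathway genes passed an adjusted p of 0.05 in either direction. Of the 32 genes, 31 were tested, each on a probe well above background on all 4 arrays, and the remaining gene was Perp. The limma fit called 0 of 31 higher, where 0.113% of all genes were called higher, and 0 of 31 lower, where 0.699% were called lower. At an unadjusted p under 0.05, 10 were higher, where the share over all genes was 12.5%, and 1 was lower, where it was 7.77%. The balance over all genes depended on the scaling, with 1403 higher and 1809 lower with the percentile over detected probes and 1536 and 1514 with quantile normalization, in place of 2221 and 1378. Among the pathway genes it was 9 higher and 1 lower under both. Both siTIMP1 arrays lay above both siControl arrays for 18 of 31, where 32.5% of all genes did, and below them for 5, where 22.1% did. The values of the other 8 genes overlapped between groups. The median log2 fold change of the 31 genes was 0.20, against 0.03 over all genes, and 21 were above 0, where 55.4% of all genes were. The lowest limma adjusted p was 0.0658, for Plk3. The genes were chosen by name with earlier results of these arrays known, so these counts describe them and test nothing about the list.

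By function, counts are read against the 32.5% of all genes that were higher and the 22.1% that were lower without overlap. Of the 6 cell cycle arrest genes, 5 were higher on both siTIMP1 arrays than on both siControl arrays, with a median log2 fold change of 0.42. Of 11 tested cell death genes, 7 were higher in this sense and 3 lower, with a median of 0.15. The 5 antioxidant and metabolic genes held 3 that were higher and 0 that were lower, with a median of 0.24. The 5 repair genes held 2 higher and 1 lower, with a median of 0.08, and the 4 genes of p53 and its feedback loop held 1 higher and 1 lower, with a median of -0.02. The repair median was -0.08 when all tested probes of a gene were averaged, and the feedback median was 0.06 without siTIMP1 replicate 2 and likewise without siControl replicate 2. Without siControl replicate 1 the antioxidant and metabolic median was 0.53, and without siControl replicate 2 or siTIMP1 replicate 1 it was 0.15. The cell death median was 0.05 without siTIMP1 replicate 2 and 0.25 without siTIMP1 replicate 1. Differences between the function groups were not tested.

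**Figure D1:**
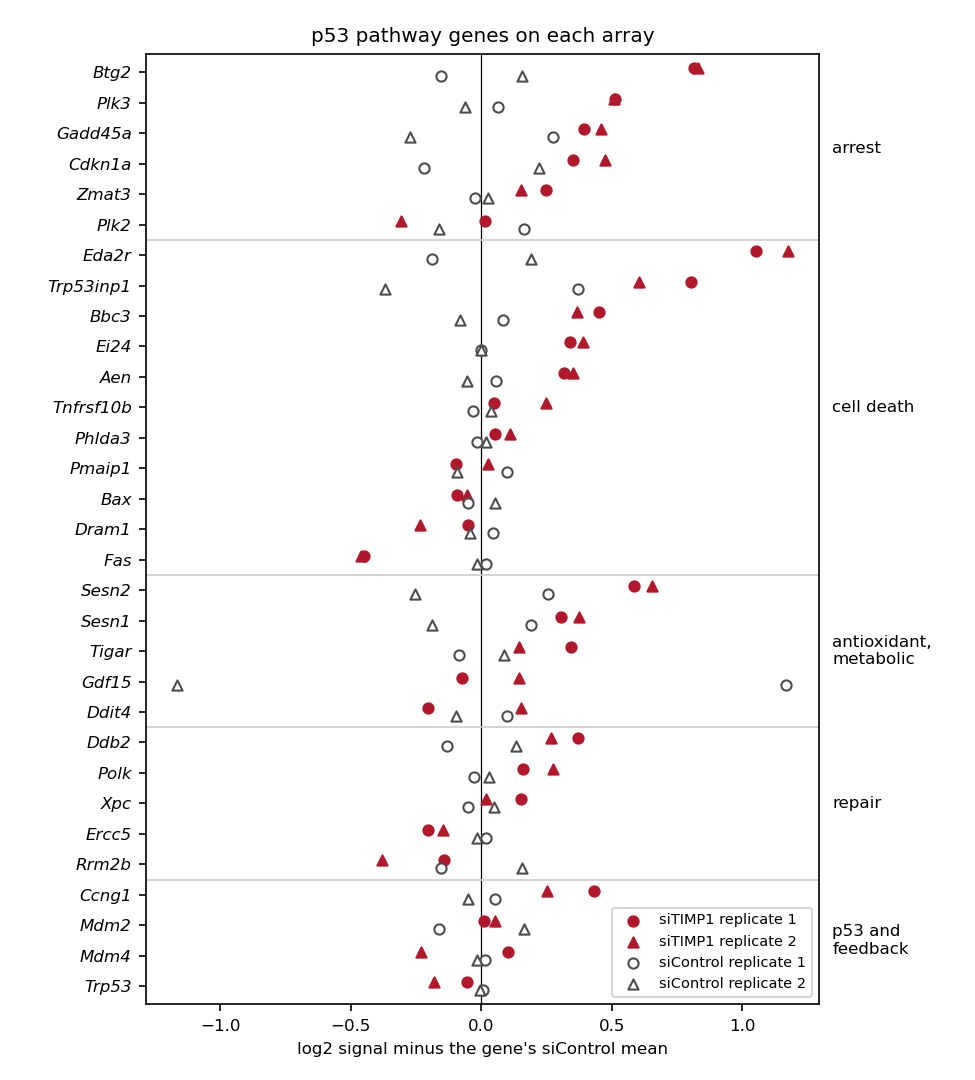
Level of the 31 tested p53 pathway genes on each array, as log2 signal minus the gene's siControl mean (horizontal axis), with genes down the page by function. Filled red symbols are the 2 siTIMP1 arrays and open symbols the 2 siControl arrays. Both red symbols lie right of both open ones for 18 genes and left of both for 5.

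Trp53 and its regulators come first. Trp53 encodes p53 itself, and its probe (chr11:69403134-69403193, mm9) gave processed signals of 482 and 440 on the siTIMP1 arrays, against 492 and 484 on the siControl arrays. Both siTIMP1 values were below both siControl values, and the log2 fold change was -0.12 (SE 0.087, 95% interval -0.34 to 0.10, limma adjusted p = 0.49). Mdm2, the ubiquitin ligase that marks p53 for degradation, gave 4499 and 4635 on the siTIMP1 arrays, against 3912 and 4861 on the siControl arrays. Here the groups overlapped, and the log2 fold change was 0.03, with a 95% interval of -0.26 to 0.33 (limma adjusted p = 0.902). A dimmer Mdm2 probe had a log2 fold change of -0.21 (limma adjusted p = 0.452).

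Mdm4, a relative of Mdm2 that binds and inhibits p53, also overlapped, with 127 and 100 on the siTIMP1 arrays, against 117 and 114 on the siControl arrays (log2 fold change -0.07, limma adjusted p = 0.83). Its 5 tested probes ranged from -0.33 to 0.20. Ccng1 encodes cyclin G1, a p53 target that acts back on Mdm2 through a phosphatase. Its signals of 671 and 592 on the siTIMP1 arrays lay above the 504 and 467 of the siControl arrays. The log2 fold change was 0.34 (SE 0.099, 95% interval 0.09 to 0.60, limma adjusted p = 0.184), so of the 4 genes in the loop the largest difference was in the cyclin, and none passed the test.

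Of the cell cycle arrest genes, Plk3, Btg2 and Cdkn1a had the smallest p. Plk3 is a polo-like kinase activated by stress. Its processed signals were 2886 and 2881 on the siTIMP1 arrays, against 2070 and 1884 on the siControl arrays (chr4:116801317-116801376, mm9). Its normalised log2 level was 4.56 ± 0.00083 in siTIMP1 and 4.05 ± 0.088 in siControl (SD, n = 2 each). The siTIMP1 level was 1.42-fold that of siControl, a log2 fold change of 0.51 (SE 0.071, 95% interval 0.33 to 0.69, limma adjusted p = 0.0658).

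Btg2 encodes an antiproliferative cofactor that links transcription factors and mRNA deadenylation. It gave 224 and 227 on the siTIMP1 arrays, against 112 and 138 on the siControl arrays (chr1:135973828-135973887, mm9). The normalised log2 level was 0.88 ± 0.011 in siTIMP1 and 0.06 ± 0.22 in siControl (SD, n = 2 each). That is a 1.77-fold difference, a log2 fold change of 0.82 (SE 0.14, 95% interval 0.48 to 1.17, limma adjusted p = 0.0885). A dimmer probe farther downstream gave 145 and 80.7 on the siTIMP1 arrays, against 35.3 and 40.5 on the siControl arrays. Both Btg2 probes thus had non-overlapping groups, and the log2 fold change on the dimmer one was 1.48 (limma adjusted p = 0.118).

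Cdkn1a encodes p21, the cyclin-dependent kinase inhibitor through which p53 is best known to arrest the cycle. Its brightest probe (chr17:29237377-29237436, mm9) gave 3812 and 4147 on the siTIMP1 arrays, against 2515 and 3378 on the siControl arrays. Both siTIMP1 values were above both siControl values, but the siControl arrays were 0.44 apart on the log2 scale, more than the 0.41 between the group means. The siTIMP1 level was 1.33-fold that of siControl (SE 0.15 and 95% interval 0.02 to 0.80 on the log2 scale, limma adjusted p = 0.249). The probe farthest upstream, at chr17:29227986-29228045 (mm9), was dim, with 24.8 and 22.0 on the siTIMP1 arrays, against 11.6 and 11.8 on the siControl arrays. Its log2 fold change was 0.96 (95% interval 0.35 to 1.56, limma adjusted p = 0.154), and that of the probe between them was 0.42 (limma adjusted p = 0.488). All 3 Cdkn1a probes were higher on both siTIMP1 arrays, and none passed the test.

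Of the other arrest genes, Gadd45a, a stress sensor that binds p21 and PCNA, is singled out after its values were seen. It had a log2 fold change of 0.43, but its siControl signals of 710 and 482 were farther apart on the log2 scale than the groups, beside 789 and 824 on the siTIMP1 arrays. Zmat3, an RNA-binding protein, and Plk2, another polo-like kinase, had log2 fold changes of 0.20 and -0.15. The limma adjusted p of these 3 genes lay between 0.284 and 0.653.

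The start regions of Cdkn1a, Btg2 and Plk3 are shown because these genes had the smallest p of their group and differ in what the sequence holds. Each window is the 250 bases before the transcription start in RefSeq (build GRCm38.p6), 5′ to 3′ on the gene's own strand. The Cdkn1a window is that of the upstream start, chr17:29090729-29090978 (+), the Btg2 window is chr1:134079156-134079405 (-) and the Plk3 window is chr4:117133964-117134213 (-). Capitals mark matches to the p53 response element in Cdkn1a and to TGACGTNA, the cAMP response element with 1 free base, in Btg2 and Plk3.
Cdkn1a: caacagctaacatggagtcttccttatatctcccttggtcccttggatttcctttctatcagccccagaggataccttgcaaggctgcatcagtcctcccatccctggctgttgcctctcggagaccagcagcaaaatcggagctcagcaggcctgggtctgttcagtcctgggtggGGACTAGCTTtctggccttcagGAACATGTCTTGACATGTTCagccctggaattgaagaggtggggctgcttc
Btg2: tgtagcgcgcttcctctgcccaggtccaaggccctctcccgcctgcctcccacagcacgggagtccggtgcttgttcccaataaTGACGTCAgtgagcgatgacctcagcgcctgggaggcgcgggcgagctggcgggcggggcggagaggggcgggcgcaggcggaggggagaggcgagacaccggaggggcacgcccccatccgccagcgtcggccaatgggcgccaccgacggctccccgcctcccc
Plk3: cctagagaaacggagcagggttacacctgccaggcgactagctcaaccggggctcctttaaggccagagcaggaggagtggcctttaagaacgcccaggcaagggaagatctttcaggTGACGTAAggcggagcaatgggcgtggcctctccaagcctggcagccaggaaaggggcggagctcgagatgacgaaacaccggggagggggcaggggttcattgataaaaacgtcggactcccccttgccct

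A p53 response element is a pair of 10-base stretches that follow the p53 decamer consensus. It was searched on both strands as a pair at most 13 bases apart with both core tetramers intact and at most 3 mismatches, and matches may overlap. The Cdkn1a window held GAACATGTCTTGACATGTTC at 51 to 32 bases before the start, with 1 mismatch and a spacer of 0. Its first decamer also formed a pair with another decamer, from 73 to 42 bases before the start, with 0 mismatches and a spacer of 12. The window of the downstream Cdkn1a start, chr17:29093519-29093768 (+), held no match. No match lay in the Btg2 or Plk3 window. TGACGTNA was searched after the Btg2 window had been read, so the Btg2 match was known beforehand. It was found in Btg2, Plk2 and Plk3. With Btg2 counted, that is 12.5% of the 24 pathway genes with a window, beside 2.92% of 26994 genes, and the shares are no test. Plk2, with that match, had a log2 fold change of -0.15 and overlapping groups. A match is a stretch of letters, and whether a factor binds there was not measured.

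**Figure D2:**
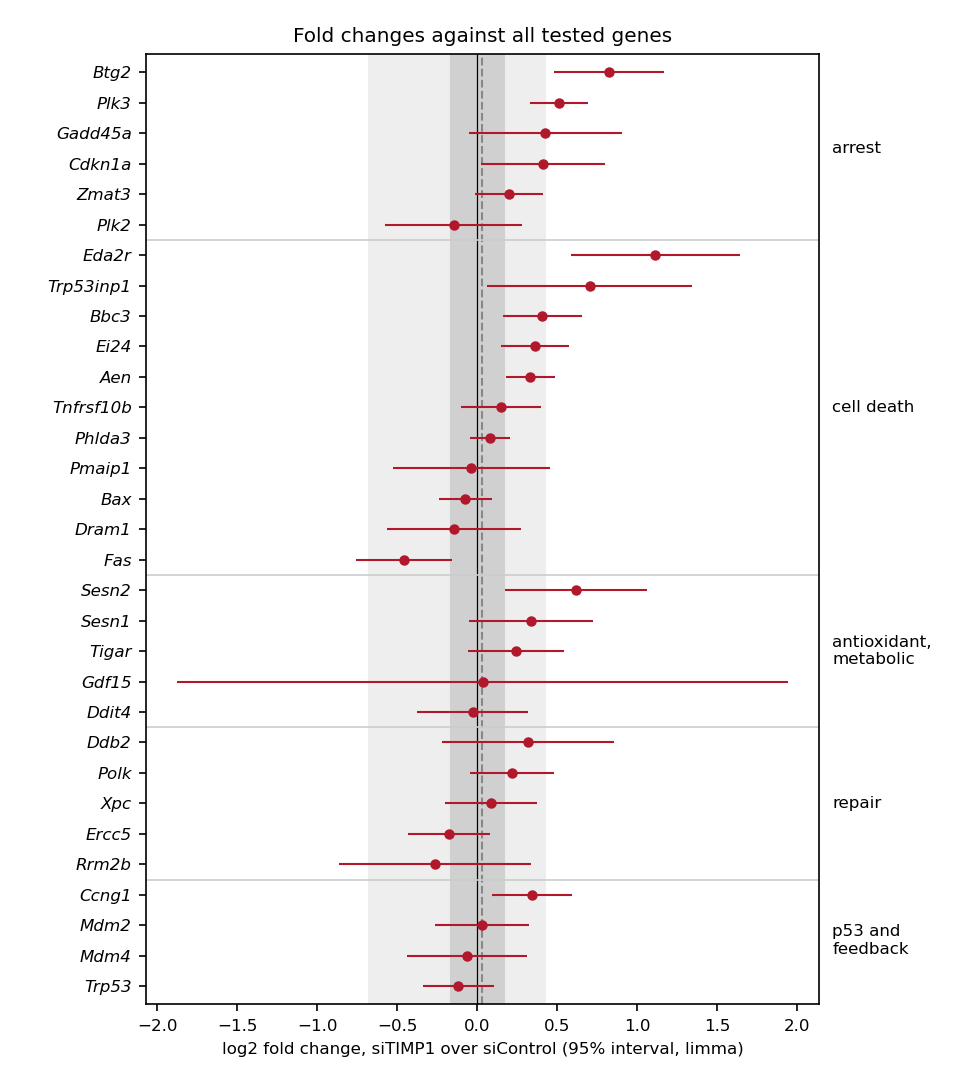
Log2 fold change of siTIMP1 over siControl for the 31 tested genes (points) with 95% intervals of the limma fit (bars), by function. The grey bands hold the middle 50% and 90% of all 17734 genes and the dashed line is their median of 0.03. Btg2, Plk3, Eda2r, Trp53inp1 and Sesn2 lie right of the wider band, Gadd45a lies at its edge, and Fas, Rrm2b and Ercc5 lie left of the inner band.

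The cell death genes were the largest group, with 12 genes. Aen, Eda2r and Ei24 had the smallest p. Aen, the apoptosis-enhancing nuclease, gave 8132 and 8322 on the siTIMP1 arrays, against 6641 and 6110 on the siControl arrays (chr7:86053207-86053266, mm9). Its normalised log2 level was 6.07 ± 0.025 in siTIMP1 and 5.74 ± 0.077 in siControl (SD, n = 2 each). The log2 fold change was 0.33 (SE 0.061, 95% interval 0.18 to 0.49, limma adjusted p = 0.107). Of 5 Aen probes, 4 had log2 fold changes between 0.32 and 0.42, and the probe farthest upstream, at chr7:86044485-86044544 (mm9), had -0.01.

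Eda2r, a receptor of the TNF receptor family for an ectodysplasin isoform, is a p53 target. Its signals were dim, with 45.8 and 49.9 on the siTIMP1 arrays, against 19.0 and 24.5 on the siControl arrays (chrX:94529458-94529517, mm9). The groups did not overlap, and the siTIMP1 level was 2.16-fold that of siControl, a log2 fold change of 1.11 (SE 0.21, 95% interval 0.59 to 1.64, limma adjusted p = 0.108). The value depended on the background correction, since the log2 fold change was 0.39 with normexp at an offset of 50. That was below those of Trp53inp1, Btg2, Sesn2 and Plk3 in that setting, and just below that of Cdkn1a. Its other 2 probes were not well above background on any array.

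Ei24, an endoplasmic reticulum membrane protein induced by p53, gave 390 and 403 on the siTIMP1 arrays, against 302 and 299 on the siControl arrays. On this probe the log2 fold change was 0.36 (SE 0.083, 95% interval 0.15 to 0.58, limma adjusted p = 0.141). Its 2 dimmer probes had 0.10 and -0.31, and the mean over its probes was 0.05.

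Bax, the pore-forming protein of the mitochondrial outer membrane, gave 4221 and 4333 on the siTIMP1 arrays, against 4251 and 4533 on the siControl arrays (chr7:52717122-52717181, mm9). The signals of the groups overlapped, but once each array was scaled both siTIMP1 values were below both siControl values. The log2 fold change was -0.07, with a 95% interval of -0.24 to 0.09 (limma adjusted p = 0.556), and on its second probe 0.05. The BH3-only genes that act upstream of Bax were singled out after their values were seen. Bbc3, which encodes Puma, gave 572 and 538 on the siTIMP1 arrays, against 434 and 384 on the siControl arrays. Its log2 fold change was 0.41 (95% interval 0.16 to 0.65, limma adjusted p = 0.147). Pmaip1, which encodes Noxa, was dim and overlapped, with 25.6 and 27.8 on the siTIMP1 arrays, against 28.6 and 24.9 on the siControl arrays (log2 fold change -0.04, limma adjusted p = 0.932).

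The death receptors were also singled out after their values were seen. Fas gave 64.1 and 63.6 on the siTIMP1 arrays, against 86.8 and 84.1 on the siControl arrays (chr19:34402164-34402223, mm9). It was the only tested pathway gene below 0 at an unadjusted p under 0.05, with a log2 fold change of -0.46 (SE 0.12, 95% interval -0.76 to -0.16, limma adjusted p = 0.163). A brighter probe named Fas, which the file headers place on chromosome 4, was not tested because its spot on siControl replicate 2 was an outlier. Tnfrsf10b, the receptor for TRAIL, was slightly higher on both siTIMP1 arrays, with a log2 fold change of 0.15 (limma adjusted p = 0.448).

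Trp53inp1, a stress protein that promotes p53 phosphorylation, was likewise chosen after its values were seen. It gave 640 and 558 on the siTIMP1 arrays, against 464 and 276 on the siControl arrays. The log2 fold change was 0.70 on this probe (95% interval 0.06 to 1.34, limma adjusted p = 0.237) and 0.42 on its second probe. The siControl arrays were 0.74 apart on that scale, more than the groups, and with an array left out the log2 fold change lay between 0.33 and 1.07. Phlda3, which keeps Akt off the membrane, and Dram1, a lysosomal protein of autophagy, had log2 fold changes of 0.08 and -0.15. Perp, a membrane protein of desmosomes, was not well above background on any array and was not tested.

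The windows of Aen and Bbc3 are shown because both genes hold a match to the p53 response element and were higher on both siTIMP1 arrays. Bax, in the same function group, also holds a match and was lower. Further start windows, 1 of Aen and 2 of Bbc3, held no match. The windows shown lie at chr7:78895808-78896057 (+) for Aen and chr7:16309333-16309582 (+) for Bbc3 in GRCm38.p6, with the match in capitals.
Aen: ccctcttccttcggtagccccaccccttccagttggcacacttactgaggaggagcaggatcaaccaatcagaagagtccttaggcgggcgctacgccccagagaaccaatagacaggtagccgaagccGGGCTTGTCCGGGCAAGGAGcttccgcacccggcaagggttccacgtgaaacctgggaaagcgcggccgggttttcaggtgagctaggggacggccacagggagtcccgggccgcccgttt
Bbc3: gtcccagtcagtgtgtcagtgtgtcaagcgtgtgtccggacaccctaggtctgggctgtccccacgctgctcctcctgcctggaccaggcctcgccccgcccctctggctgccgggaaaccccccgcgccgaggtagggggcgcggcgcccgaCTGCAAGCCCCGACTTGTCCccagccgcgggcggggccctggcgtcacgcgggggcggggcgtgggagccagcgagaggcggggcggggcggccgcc

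The Aen match is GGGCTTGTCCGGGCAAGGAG, from 121 to 102 bases before the start, and the Bbc3 match is CTGCAAGCCCCGACTTGTCC, from 97 to 78 bases before it, each with 3 mismatches. Of the 32 genes, 24 had windows in the RefSeq promoter table, and 8 of them, or 33.3%, held such a match. Over all 26994 genes with a window the share was 6.42%. The list was chosen by name to hold genes known as p53 targets, so these shares are no test of it. The 8 were Trp53, Mdm4, Cdkn1a, Sesn1, Bax, Bbc3, Aen and Tigar. Their log2 fold changes ranged from -0.12 to 0.41, with a median of 0.29 and 5 above 0. The 16 genes without a match ranged from -0.46 to 1.11, with a median of 0.15 and 11 above 0. The difference between these sets was not tested, and a window of 250 bases does not reach response elements that lie farther away or in introns.

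Of the antioxidant and metabolic genes, the sestrins are stress proteins that restrain mTORC1. Sesn2 gave 1284 and 1346 on the siTIMP1 arrays, against 1000 and 698 on the siControl arrays (chr4:132048858-132048917, mm9). This was a log2 fold change of 0.62 (SE 0.17, 95% interval 0.18 to 1.06, limma adjusted p = 0.178). Sesn1 gave 213 and 223 on the siTIMP1 arrays, against 193 and 147 on the siControl arrays, a log2 fold change of 0.34 (95% interval -0.05 to 0.73, limma adjusted p = 0.311). Both were higher on both siTIMP1 arrays, and in both the siControl arrays were farther apart than the siTIMP1 arrays.

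Tigar, a phosphatase that lowers glycolytic flux, gave 354 and 308 on the siTIMP1 arrays, against 257 and 287 on the siControl arrays. The groups did not overlap, and the log2 fold change was 0.24 (95% interval -0.06 to 0.54, limma adjusted p = 0.335). Ddit4, another brake on mTORC1, overlapped, with a log2 fold change of -0.03. Gdf15, a secreted stress cytokine, is described because of its spread, which was seen in the values. It gave 32.5 and 37.8 on the siTIMP1 arrays, against 75.2 and 14.8 on the siControl arrays. The siControl arrays were 5.04-fold apart, and the log2 fold change of 0.03 had a 95% interval of -1.88 to 1.95 (limma adjusted p = 0.986). Without siControl replicate 2 it was -1.13 and without siControl replicate 1 it was 1.20, so no direction can be given.

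Among the repair genes, Polk, a polymerase that copies past damaged bases, gave 178 and 193 on the siTIMP1 arrays, against 153 and 158 on the siControl arrays. Their difference was 0.22 on a log2 scale (95% interval -0.04 to 0.48, limma adjusted p = 0.325). Ercc5, the endonuclease that cuts 3′ of a lesion in nucleotide excision repair, gave 132 and 137 on the siTIMP1 arrays, against 150 and 146 on the siControl arrays. It was thus below siControl on both arrays, with a log2 fold change of -0.18 (95% interval -0.43 to 0.08, limma adjusted p = 0.391).

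Ddb2, which recognises ultraviolet damage, was dim, with 27.3 and 25.5 on the siTIMP1 arrays, against 18.9 and 22.5 on the siControl arrays. Its log2 fold change was 0.32 (95% interval -0.22 to 0.86, limma adjusted p = 0.45), and its other probe had -0.10. Xpc, another damage recognition protein, and Rrm2b, a p53-induced subunit of ribonucleotide reductase, had log2 fold changes of 0.08 and -0.26 and overlapping groups. No repair gene had an unadjusted p under 0.05 in the limma fit, where 12.5% of all genes were higher and 7.77% lower.

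**Figure D3:**
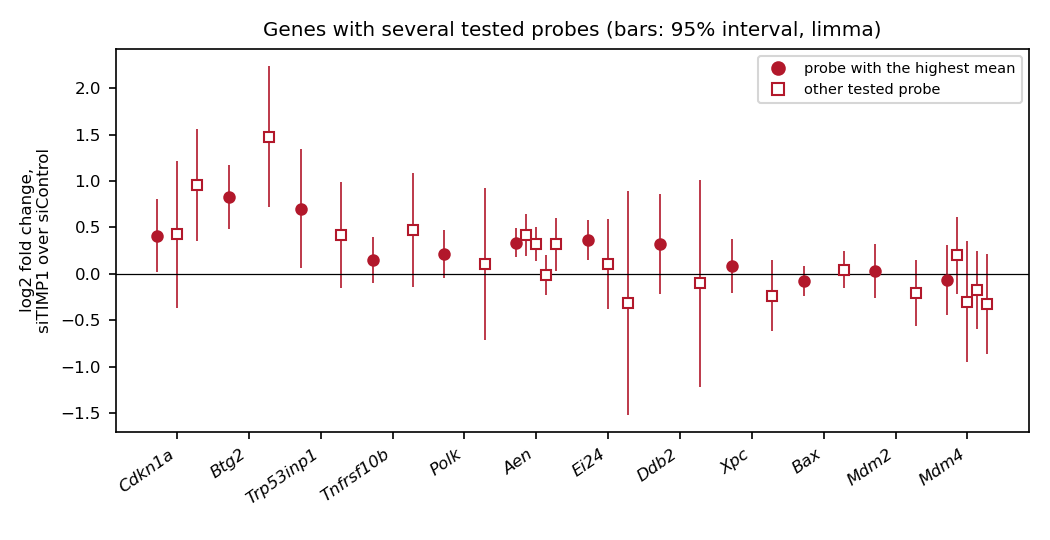
Log2 fold change of siTIMP1 over siControl on each tested probe of the 12 genes with more than 1 tested probe, with 95% intervals of the limma fit. Filled circles are the probe that represents the gene and open squares its other probes. All probes of 5 genes lie above 0 and those of the other 7 lie on both sides of it.

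Different probes of a gene did not always have the same direction. Of 12 genes with more than 1 tested probe, Cdkn1a, Btg2, Trp53inp1, Tnfrsf10b and Polk were above 0 on all of their tested probes. The other 7 had probes on both sides of 0, and the remaining 19 genes rested on 1 tested probe. When the probes of a gene were averaged, 19 of 31 genes were above 0, and the median log2 fold change was 0.11.

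The spread within siControl was of the size of the differences for many genes. Over the 31 genes, the median size of the difference between groups was 0.24 on the log2 scale, against 0.17 over all genes. The median gap between replicate arrays was 0.11 in siTIMP1 and 0.16 in siControl, against 0.11 and 0.14 over all genes. The gap between the siControl arrays was larger than the difference between groups for 12 of 31 genes, or 38.7%, and for 46.2% of all genes. Among these 12 were Cdkn1a, Gadd45a, Trp53inp1, Sesn1, Mdm2 and Gdf15. Plk3, Btg2, Aen, Eda2r, Ei24, Bbc3 and Fas were not among them.

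**Figure D4:**
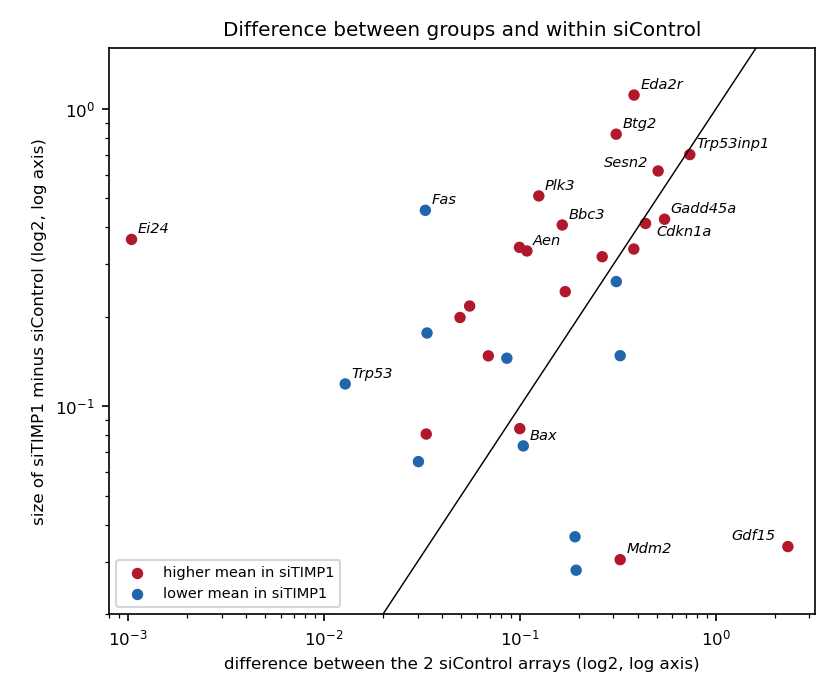
Size of the difference between siTIMP1 and siControl (vertical axis) against the difference between the 2 siControl arrays (horizontal axis), both on the log2 scale with log axes, for the 31 tested genes. Red points have the higher mean in siTIMP1 and blue points the lower, and the line marks equal values. The 12 points right of the line, with Gdf15 the farthest, have a siControl gap larger than the difference.

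Calls among these genes depended on which arrays and which threshold were used. At an adjusted p under 0.1, and likewise with no filter on dim probes, Btg2 and Plk3 were called higher, where 0.829% and 0.347% of all genes were. In these settings 0 were called lower, where 1.48% and 0.711% of all genes were. Without siControl replicate 1, 6 genes were called higher, namely Aen, Btg2, Gadd45a, Plk3, Sesn2 and Trp53inp1, where 2.62% of all genes were. Without siControl replicate 2, Btg2 and Cdkn1a were called higher, where 0.485% of all genes were. In both cases 0 of 31 were called lower, where 3.46% and 1.18% of all genes were. The limma fit of the report called 0 of 31 pathway genes. Leaving out either siTIMP1 array added no pathway call and ended the calls over all other genes. At an unadjusted p under 0.05, 5 pathway genes and 1005 genes in all were higher without siTIMP1 replicate 1, and 6 and 1029 without siTIMP1 replicate 2. With 1 array left in a group, limma takes the spread from the other group alone.

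Other genes of the pathway, from lists of upstream regulators, further targets and genes repressed through p21, are given by count and by the few of smallest p. Of 26 upstream regulators 25 were tested and 0 were called, where 0.113% of all genes passed upward and 0.699% downward. At an unadjusted p under 0.05, 5 were higher and 3 lower in limma, where 12.5% and 7.77% of all genes were, and the median log2 fold change was 0.02. Dyrk2, a kinase of p53, had a log2 fold change of 0.43 on its brightest probe and -0.11 on the other. Rpl5, a ribosomal protein that binds Mdm2, had 0.16, and Cop1, a ubiquitin ligase of p53, had 0.22. The limma adjusted p of Dyrk2, Rpl5 and Cop1 lay between 0.151 and 0.178.

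Of 40 further targets, 38 were tested. Of these, 0 were called higher, where 0.113% of all genes were, and 1 was called lower, where 0.699% were. That gene was Ak1, an adenylate kinase, with 8957 and 8943 on the siTIMP1 arrays, against 14919 and 13985 on the siControl arrays. Ak1 fell by 0.73 on the log2 scale, with a 95% interval of -0.86 to -0.59 (SE 0.053, limma adjusted p = 0.0225). The call ended without either siTIMP1 array, at limma adjusted p of 0.138 and 0.174, and without a variance trend, at 0.151. Of the 38 targets, 30 were above 0, where 55.4% of all genes were, and the median was 0.10. At an unadjusted p under 0.05, 8 were higher and 1 was lower in limma, where 12.5% and 7.77% of all genes were. Triap1, an inhibitor of apoptosis, had a log2 fold change of 0.38, Slc19a2, a thiamine transporter, 0.71, and Fbxw7, a ubiquitin ligase subunit, 0.39. Their limma adjusted p lay between 0.114 and 0.117.

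All 15 genes known to be repressed through p21 and the DREAM complex were tested. Of these, 0 were called in either direction, where 0.113% of all genes passed upward and 0.699% downward. With shares this low, 0 of 15 says nothing about the list. At an unadjusted p under 0.05, 0 were higher and 1 was lower in the limma fit, where 12.5% and 7.77% of all genes were. The median log2 fold change was 0.06. Rrm2, the S-phase subunit of ribonucleotide reductase, gave 2881 and 2798 on the siTIMP1 arrays, against 4637 and 3877 on the siControl arrays, a log2 fold change of -0.61 (limma adjusted p = 0.0791). It was called lower in 4 of 15 alternatives, among them no filter on dim probes (limma adjusted p = 0.0228) and leaving out either siControl array (0.0245 and 0.0203). Aurkb and Cdk1, kinases of mitosis, had log2 fold changes of 0.27 and 0.31, and Ccnb1, the cyclin partner of Cdk1, had -0.29 on its brightest probe and 0.43 on another. The limma adjusted p of these 3 brightest probes lay between 0.32 and 0.367.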

How the data were processed

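The deposited scanner files hold spot intensity values, and the submitters' processing notes name Agilent Feature Extraction 11.5.1.1. Per the file headers, the background of a spot was subtracted, a spatial trend removed and no scaling made between arrays. The authors' value table holds deposited log2 values that followed the processed signal minus 1 constant per array, from 6.90 to 6.96. Column medians were -3.99 and -3.91 for siTIMP1 and -3.94 and -3.86 for siControl, and no scale, centring or direction stayed unknown. The number of columns with no sample was 0.

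Each processed signal was put on a log2 scale, less the 75th percentile of non-control probes on that array as computed here. That percentile was a signal of 123 and 122 on the siTIMP1 arrays and 120.1 and 119 on the siControl arrays. Outlier spots, 136 to 250 per array, were left out, and 0 spots were saturated. Between 43.3% and 49.9% of probes were well above background, fewest on siTIMP1 replicate 2. A probe, of which 26015 qualified, was tested when 1 group or both had it well above background on each array. Having 2 arrays per group limits the precision.

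Groups, taken from the sample titles, were compared in R 4.3.3 with lmFit and eBayes (with a trend) of limma 3.58.1, and p-values of all tested probes were adjusted by Benjamini-Hochberg. The tested probe of highest mean stands for its gene. Adjusted p-values come from this fit, except where another setting is named. The fit was tested on simulated data drawn from its own means and spread, which cannot check whether these arrays meet its assumptions. Replicate numbers follow accession order. Whether replicates are separate cultures is not given in the labels. The p-values therefore measure the spread between these samples alone, and it may be technical.

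The pathway genes, lists and function groups were chosen with earlier results of these data known. Values on each array are given for called genes, the 3 of smallest p per function group, and Trp53, Mdm2, Cdkn1a and Bax. Outside them, Timp1, Cdkn2a and up to 4 genes per list are named, and other choices are stated where made. One gene that this rule names is not reported here. Alternatives were normexp with an offset of 50, quantile normalization, the percentile over detected probes, the authors' table, other filters and eBayes settings, keeping outlier spots, averaging a gene's probes, a threshold of 0.1 and leaving out each array. Promoter windows came from RefSeq (GRCm38.p6). Probe coordinates are mm9, per the file headers. Figures were drawn with matplotlib 3.10.9.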

Additional observations from a re-analysis of the deposited data

How the results depend on the processing

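No paired analysis was possible because the labels give the groups no shared replicate number. A slide block could not be fitted, since all 4 arrays lie on 1 slide. Of 465 values for the 31 tested pathway genes under 15 alternatives, 453 stayed on the same side of the threshold, 12 became called, and 16 had the opposite sign, with no call in either setting. The 16 belonged to Mdm2, Mdm4, Pmaip1, Plk2, Gdf15, Ddit4 and Xpc. The count of pathway genes called higher, 0 in the report, was 2 with no filter on dim probes and 2 at an adjusted p under 0.1, Btg2 and Plk3 in both, beside 0.347% and 0.829% of all genes. It was 0 to 6 when an array was left out. The count called lower was 0 under every alternative, beside 0.711% of all genes with no filter on dim probes and 1.48% at an adjusted p under 0.1. With all 4 arrays kept, at most 1 was lower at an unadjusted p under 0.05 in limma. The share of all genes lower at that threshold was 7.77% in the report. The median log2 fold change, 0.20, was 0.13 with normexp, 0.15 with the percentile over detected probes, 0.11 when probes of a gene were averaged, and 0.15 to 0.18 with an array left out. Without siTIMP1 replicate 1 it was 0.15 and without siTIMP1 replicate 2 it was 0.16. With outlier spots kept, the brighter probe named Fas, placed on chromosome 4, stood for the gene, with -1.78 (limma adjusted p = 0.405). That value includes the outlier spot on siControl replicate 2. With the authors' table the value for Fas was -1.77 (limma adjusted p = 0.404).

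Timp1 kept its direction under all 15 alternatives. Without a trend its log2 fold change was -5.21 at a limma adjusted p of 0.134, and with an array left out it was -5.39 to -5.04, with the call lost without either siTIMP1 array. Genes called higher numbered 20 in the report, 7 with normexp, 12 with the authors' table, 129 with dim probes kept, 0 without a trend, 52 with robust eBayes, 12 with outlier spots kept, 8 with the mean of probes, 147 at an adjusted p under 0.1, and 0 to 464 with an array left out. Genes called lower numbered 124 in the report, 75 with normexp, 264 with dim probes kept, 0 without a trend, 68 with probes averaged, 263 at an adjusted p under 0.1, and 0 to 614 with an array left out. Without a trend, 1438 genes were higher in limma at an unadjusted p under 0.05, and 1426 lower. The cause of these shifts was not tested. Signal over background limits the dim genes, among them Rrm2b, Ddb2, Pmaip1, Eda2r and Gdf15, and 2 arrays per group limit all of them.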
